A study of Mus musculus with 6 samples.

Results

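The nuclear-encoded genes of oxidative phosphorylation (OXPHOS) were examined in pancreatic islets of mice with and without a β-cell deletion of *Parn*, which encodes a poly(A)-specific ribonuclease. Members were taken by name alone, as every gene called *Ndufa*, *Ndufb*, *Ndufc*, *Ndufs*, *Ndufv*, *Uqcr*, *Cox4* to *Cox8*, *Atp5* or *Sdha* to *Sdhd*. Of the 55060 genes in the deposited table, 107 had such a name. The 9 names holding -ps, which marks a pseudogene, were left out, and 98 members remained, on 19 chromosomes. Complex I had 39 members, and 8 more were its assembly factors, *Ndufaf1* to *Ndufaf8*, which help to build the complex without being part of it. Complex II had 4 members, complex III 8, complex IV 21 and complex V 18. *Ndufa4* and *Ndufa4l2* were counted with complex IV, to which the NDUFA4 protein belongs despite its name. By the annotation in the table, 4 members were processed pseudogenes (*Ndufb4c*, *Ndufs6b*, *Cox6c2* and *Ndufa11b*), and the other 94 were protein coding.

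Complexes I to IV, in the inner mitochondrial membrane, pass electrons from NADH and succinate to oxygen, and complexes I, III and IV pump protons as they do so. Complex V, the ATP synthase, uses the proton gradient to make ATP. In β cells, the ATP made from glucose closes potassium channels, and this starts insulin release. A few subunits of complexes I, III, IV and V are encoded in the mitochondrial genome, whereas the members described here are encoded in the nucleus and imported.

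RNA was sequenced from 3 islet samples labelled Ctrl and 3 labelled cKO, from mice of 12 weeks of age. The cKO mice were *Ins2-cre; Parn f/f*. Their Cre recombinase is expressed from the insulin 2 promoter, so deletion is meant for β cells, and exon 7 of *Parn* lies between the loxP sites. The Ctrl mice were *Parn f/f* mice and other littermates. Whether a Ctrl mouse carried Cre, the sex of the mice and whether islets of several mice were pooled are not given in the sources used here. Islets were picked by hand after collagenase digestion, so each sample also held α, δ, endothelial, stromal, exocrine and immune cells. In such bulk samples, fewer cells of a type and less RNA per cell cannot be told apart.

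The authors deposited FPKM, fragments counted on a gene, corrected for gene length and sequencing depth. The reads behind the values could be read back, and 16289408 to 17944775 reads lay on genes in each sample. Of these reads, 0.707%, 0.725% and 0.644% fell on members in the Ctrl samples (replicates 1, 2 and 3, an order kept throughout), and 0.645%, 0.741% and 0.679% in the cKO samples, so the genotypes overlapped. *Ins1* and *Ins2* together took 26.5% to 30.1% in Ctrl and 22.0% to 24.6% in cKO. For *Parn* itself, Ctrl values were 6.64, 8.34 and 7.38 and cKO values 4.97, 4.61 and 6.15 (FPKM), and the genotypes did not overlap (log2 fold change -0.44, limma adjusted p = 0.545). Ctrl replicate 1 had the lowest correlations with the other samples (Pearson's r across genes of 0.943 to 0.958). It also had the highest sum of leukocyte markers, at an FPKM of 1083 against 215 to 369 in the other 5 samples.

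For the comparison, limma was fitted to log2(FPKM + 1) of all 21211 genes whose mean FPKM reached 0.1, so a fold change understates the change of low genes. Of the 98 members, 94 were tested and 90 had a mean FPKM of at least 1. *Cox8c*, *Ndufa11b* and a second entry named *Atp5o* (ENSMUSG00000116933) were at 0 in every sample. *Cox7b2* had an FPKM of 0.408 in cKO replicate 3, from 4 reads, and 0 in the other samples. A tested member had a median of 1028 reads, averaged over the samples.

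Promoters of respiratory genes are known to hold sites for NRF-1, for ETS factors such as GABP, also called NRF-2, and for YY1. RefSeq windows of GRCm38.p6, from 250 bases before a gene's start to 50 bases after it, were at hand for 76 protein-coding members. The NRF-1 letters GCGCA and GCGC with any 1 base between them were found on either strand in 19 of them (25%), against 7.17% of 17492 protein-coding genes with a window. The letters CCGGAAG, for ETS factors, were found in 18 members (23.7%) and 12.9% of coding genes. The letters AANATGGCG, for YY1, were found in 11 members (14.5%) and 3.64% of coding genes. At least 1 of the 3 motifs was present in 41 members (53.9%) and 20.9% of coding genes. TATAAA, the core of a TATA box, was found in 7 of 76 members (9.21%) and 14.8% of coding genes. A match is a run of letters, not a bound site, and these shares were not tested.

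The stretches below show the NRF-1 letters before the start of the most highly expressed member of complexes I, II, IV and V that had them there. Complex III had no such match before a start. Each is 30 bases, written 5′ to 3′ on the strand of the gene, with the motif in capitals. They are from RefSeq, GRCm38.p6, at chr4:123718265-123718294, chr9:50603909-50603938, chr5:115349101-115349130 and chr11:115420041-115420070, all on the minus strand.
*Ndufs5*: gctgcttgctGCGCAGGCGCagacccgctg
*Sdhd*: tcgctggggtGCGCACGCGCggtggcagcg
*Cox6a1*: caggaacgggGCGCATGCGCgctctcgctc
*Atp5h*: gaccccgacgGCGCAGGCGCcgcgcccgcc
The motif ended 88, 69, 152 and 131 bases before the start site, respectively. The same letters thus stood at different distances from the start in the 4 genes.

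The ETS letters of complex III and the YY1 letters of complexes I and V are shown by the same choice, from chr10:80406869-80406898, chrX:20617811-20617840 and chr16:84835045-84835074, again on the minus strand.
*Uqcr11*, ETS: ttctctcctccCCGGAAGtagatgtcaatg
*Ndufb11*, YY1: tcaccaacacAAAATGGCGacgagaagaga
*Atp5j*, YY1: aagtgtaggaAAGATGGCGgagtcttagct
The YY1 letters occurred in 7 of 32 promoters of complex I members and 3 of 15 of complex V, and in 0 of 14 of complex IV, 0 of 5 of complex III and 0 of 3 of complex II. The other 1 was among the 7 assembly factors.

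The respiratory chain genes were abundant transcripts in islets. The median member tested had a mean FPKM of 36.2, against 2.10 for all genes tested, and 75 members had a mean of at least 10. Levels within a complex were far from equal, although most subunits of complexes I to IV are built in at equal number. Over protein-coding members with a mean of at least 1, the highest level of complex I was 73.6 times the lowest, that of complex III 4.67 times and that of complex V 24.4 times. This spread depended on the length used. With the length of the principal GENCODE transcript in place of the longer gene length of the table, the ratio was 10.9 in complex I, 4.05 in complex III and 31.7 in complex V.

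**Figure D1:**
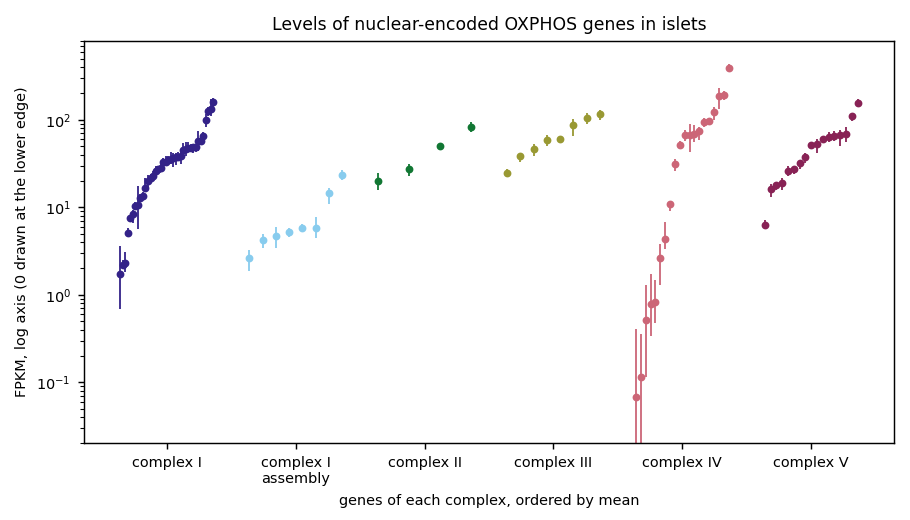
Mean FPKM of each member above 0, on a log axis, by complex and ordered by level within it. Points are means over all 6 samples and lines run from the lowest to the highest sample. Most members lie above 10, and the low end of complex IV holds the tissue-restricted copies.

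In complex I, *Ndufa1* (X, 37187588 to 37191163, GRCm38), an accessory subunit, was highest, with a Ctrl FPKM of 163 ± 6.69 (SD, n = 3) against 160 ± 20.6 for cKO. *Ndufb11*, also on X, followed with 145 ± 23.8 in Ctrl and 124 ± 13.1 in cKO. The lowest above 0 was the pseudogene *Ndufs6b*, with 4 to 22 reads per sample. Among the core subunits, which hold the flavin and the iron-sulfur clusters, *Ndufs1* was at a mean of 7.49, *Ndufv1* at 27.3 and *Ndufs8* at 47.7. Core subunits thus did not stand together at one level. With principal transcript lengths these 3 were at 23.4, 41.4 and 46.7, so the spread came in part from the length used. With the gene length of the table, the assembly factors were lower, from 2.66 for *Ndufaf2* to 23.4 for *Ndufaf8*. *Ndufaf3* was the next highest, with 14.0 ± 2.77 in Ctrl and 15.0 ± 0.622 in cKO.

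Complex II, succinate dehydrogenase, links the citric acid cycle to the chain. The level of *Sdhd*, one of its membrane anchors, was 93.7, 94.2 and 79.2 in Ctrl and 76.4, 84.0 and 71.6 in cKO. That of *Sdhc*, the other anchor, was 19.2, 23.6 and 15.8 in Ctrl and 20.0, 17.1 and 24.4 in cKO. The values of the genotypes overlapped for both anchors. For *Sdhd* the log2 fold change was -0.20 (95% interval -0.46 to 0.06) and the limma adjusted p was 0.752. *Sdha*, the flavoprotein, was the steadiest of the 4, at 48.2, 52.2 and 49.6 in Ctrl and 51.0, 50.9 and 51.0 in cKO. For the iron-sulfur subunit *Sdhb*, Ctrl was at 27.4 ± 4.39 (SD, n = 3) and cKO at 27.4 ± 1.85.

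In complex III, *Uqcr10* and *Uqcr11*, small accessory subunits, were highest, with means of 115 and 104, and *Uqcrc1*, a core protein, was lowest at 24.6. In complex V, the catalytic core led, with *Atp5a1* (subunit α) at 161 ± 9.78 (SD, n = 3) for Ctrl and 149 ± 7.76 for cKO. *Atp5b* (subunit β) had 112 ± 12.2 in Ctrl and 111 ± 2.96 in cKO. *Atp5s* was lowest, at 6.57 ± 0.476 and 6.09 ± 0.114. With principal transcript lengths, *Atp5e* had the highest level of complex V at 276, so the order within the complex was set in part by the length.

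Complex IV, cytochrome c oxidase, has several subunits with a widespread copy and a copy restricted to certain tissues. *Cox8a* was the highest of all members, at 386, 436 and 382 in Ctrl and 355, 396 and 373 in cKO. Its muscle copy *Cox8b* had 0, 2 and 2 reads in Ctrl and 0 in each cKO sample. *Cox7a1*, the muscle copy of *Cox7a2*, reached 1.71 at most, *Cox6b2*, the testis copy of *Cox6b1*, 1.29, and *Cox4i2*, a copy of *Cox4i1* known from lung, 3.79. In contrast, *Cox6a2*, known as the heart and skeletal muscle copy, was well expressed, at 56.8, 88.4 and 80.6 in Ctrl and 42.8, 62.3 and 73.2 in cKO. Its share of *Cox6a1* and *Cox6a2* together was 21.7%, 29.1% and 31.4% in Ctrl and 20.2%, 23.3% and 27.9% in cKO. With the gene length of the table, 1 of these restricted copies was thus within the range of the common subunits in every sample. Its values in the genotypes overlapped (log2 fold change -0.35, 95% interval -0.93 to 0.24). With principal transcript lengths, *Cox6a2* stayed at a mean of 67.3, while *Cox6a1* was at 238 and the median of complex IV at 141. Markers of skeletal muscle were near 0 in the same samples. The 12 markers summed to an FPKM between 1.93 and 3.78, with *Tnnc2*, *Myh1*, *Myh2* and *Myh4* at 0 in every sample. The leukocyte gene *Itgad* overlaps *Cox6a2* on the opposite strand, and whether the counting used strand is not given.

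**Figure D2:**
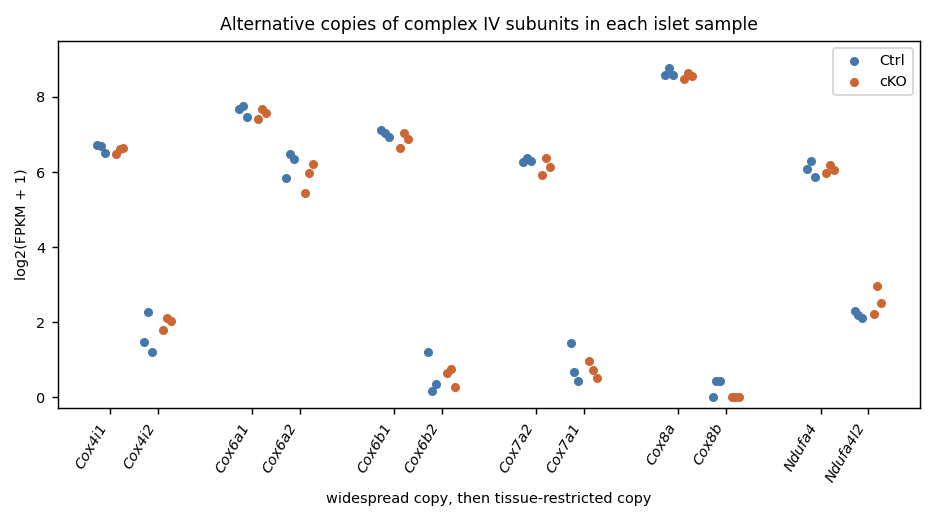
Level of 6 widespread complex IV subunits and their restricted copies in each sample, as log2(FPKM + 1), for Ctrl and cKO. *Cox6a2* lies below *Cox6a1*, at 20.2% to 31.4% of the 2 together. *Cox4i2*, *Cox6b2*, *Cox7a1*, *Cox8b* and *Ndufa4l2* lie much further below their partners.

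*Ndufa4l2*, a copy of *Ndufa4* known to be induced by hypoxia, was 3.93, 3.54 and 3.35 in Ctrl and 3.64, 6.83 and 4.70 in cKO, between 4.40% and 8.66% of the 2 copies. *Ndufa4* itself was at 67.1 ± 9.78 (SD, n = 3) for Ctrl and 66.1 ± 5.43 for cKO. The genes *Atp5g1*, *Atp5g2* and *Atp5g3* encode the same mature c subunit of the ATP synthase rotor. *Atp5g2* had 67.9 ± 4.92 in Ctrl and 59.2 ± 4.20 in cKO. *Atp5g3* had 52.0, 51.1 and 46.5 in Ctrl and 52.2, 53.6 and 54.2 in cKO, and *Atp5g1* 15.3 ± 2.64 and 16.7 ± 1.33. *Atp5g3* as a share of itself and *Atp5g2* was 40.4% to 45.4% in Ctrl and 46.0% to 48.5% in cKO, without overlap. None of the 3 was at an unadjusted p under 0.05.

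Between the genotypes, differences were small. At an adjusted p under 0.05, 0 of the 94 members tested were called, as were 0 of all genes tested (0%, and 2 genes with limma's voom on the reads, neither a member), and the smallest adjusted p of a member was 0.520 (limma with Benjamini-Hochberg adjustment). At an unadjusted p under 0.05, 0 members were higher in cKO, where 4.33% of all genes were, and 6 were lower (6.38%), where 3.07% of all genes were, out of 7.4% in either direction. In 9 members all cKO samples were below all Ctrl samples, and in 3 above, against 6.03% and 7.11% of all genes, 13.1% together. For 54 of the 94, the absolute log2 fold change was under the pooled SD within genotypes. The 95% interval lay within 1 log2 unit either way for 91, so changes of 2-fold were outside the interval for nearly all members. With each replicate left out in turn, between 2 and 9 members were lower, beside 402 to 1173 of all 21211 genes tested. The lowest count of members, 2, came without Ctrl replicate 2, without cKO replicate 1 and without cKO replicate 3. In these 3 fits, 556, 544 and 402 of all genes were lower. Scaled to the reads on genes, 2 members were lower and 2 higher, beside 378 and 1404 of all genes. Scaled to the reads outside *Ins1* and *Ins2*, 15 members were lower and 0 higher, beside 1260 and 615 of all genes. The counts over all genes thus moved with the scaling too.

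**Figure D3:**
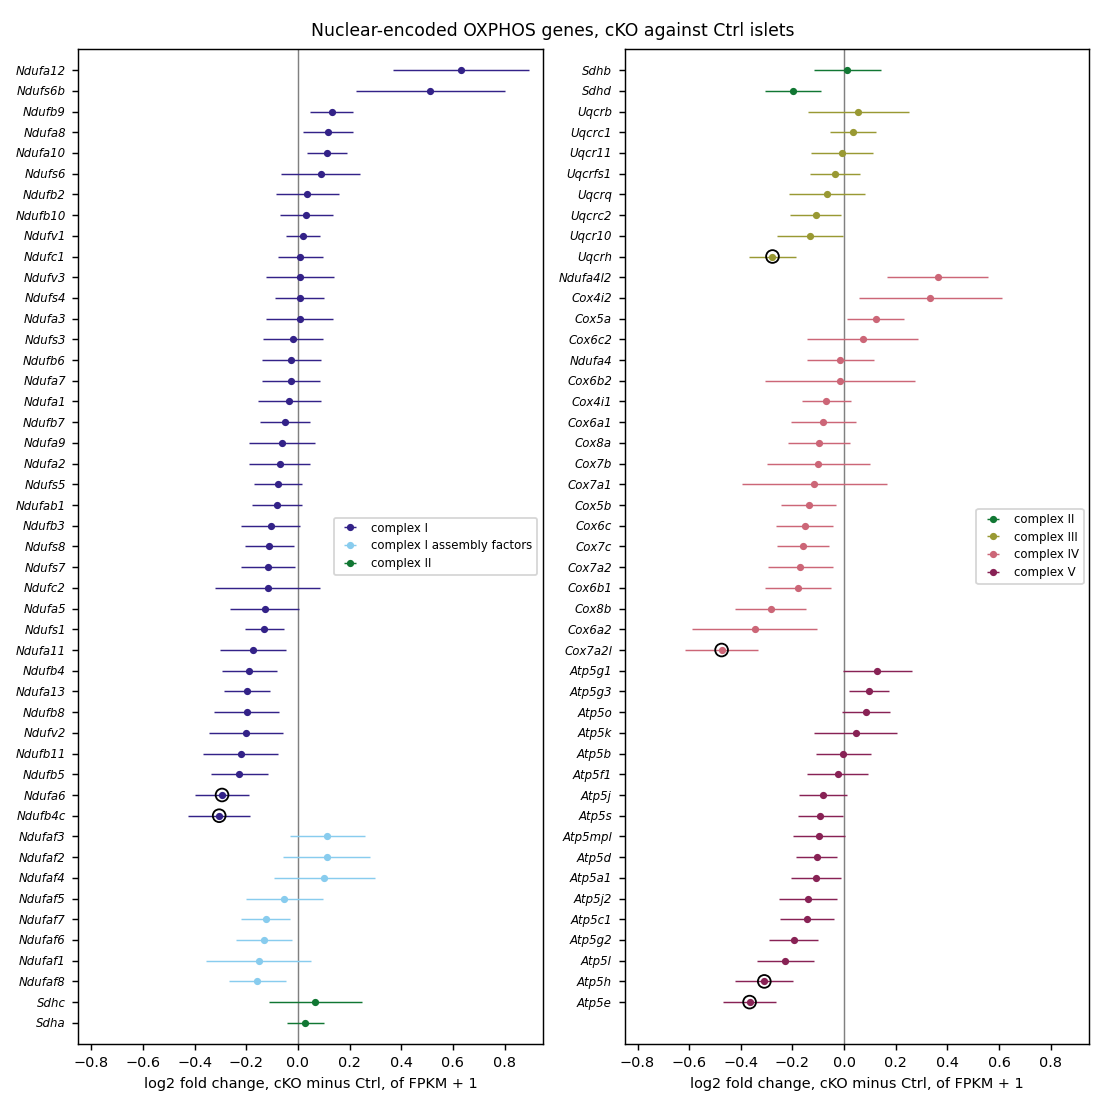
Log2 fold change, cKO minus Ctrl, of the members tested, except 1 that is not shown, with the standard error as a bar, ordered within each complex. Rings mark the 6 members at an unadjusted p under 0.05, all lower in cKO. None passed the adjusted threshold.

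The largest fall was that of *Cox7a2l* (chromosome 17, 83501919 to 83514333), which encodes a protein described as joining complexes III and IV into supercomplexes. Whether it does so in these mice was not examined. Its FPKM was 187, 233 and 224 in Ctrl and 133, 169 and 161 in cKO. The highest cKO value was below the lowest Ctrl value. The log2 fold change was -0.47 (standard error 0.140, 95% interval -0.81 to -0.14), with an unadjusted p of 0.0130 and an adjusted p of 0.545 from limma. The related *Cox7a2* had 76.3, 81.3 and 77.3 in Ctrl and 59.4, 81.6 and 69.2 in cKO, with overlap (log2 fold change -0.17). Whether the 2 genes differed in their fold change was not tested.

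*Atp5e* (chromosome 2, 174461072 to 174464105), the ε subunit in the central stalk of the ATP synthase, had 72.7, 76.3 and 74.3 in Ctrl and 58.4, 50.7 and 64.2 in cKO. The genotypes did not overlap, and the Ctrl samples lay closer together than the cKO samples. The log2 fold change was -0.37 (standard error 0.104), with an unadjusted p of 0.0109 and an adjusted p of 0.520 from limma. *Cox7a2l* and *Atp5e* were the only 2 of the 6 with an unadjusted p under 0.05 in all 6 fits that left out a replicate and also when scaled to the reads on genes, where their log2 fold changes were -0.39 and -0.28.

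The other 4 lower members depended on the scaling or on single samples. *Uqcrh*, the hinge protein of complex III, had 67.0, 66.1 and 59.7 in Ctrl and 49.6, 56.6 and 52.5 in cKO (log2 fold change -0.28, limma unadjusted p = 0.0196, adjusted p = 0.563). *Ndufa6*, an accessory subunit of complex I, had 49.8, 55.6 and 47.9 in Ctrl and 39.6, 46.4 and 38.7 in cKO (-0.29, 0.0280 and 0.609). *Atp5h*, subunit d of the peripheral stalk of complex V, had 77.8, 82.0 and 71.4 in Ctrl and 55.6, 70.2 and 60.8 in cKO (-0.31, 0.0304 and 0.619). The highest cKO sample of all 3 was replicate 2, and for *Ndufa6* and *Atp5h* it lay just below the lowest Ctrl sample. Scaled to the reads on genes, their unadjusted p was 0.102, 0.113 and 0.114. The fourth, *Ndufb4c*, is a pseudogene with 13 to 19 reads per sample and a near copy of *Ndufb4*, so its reads may be shared.

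**Figure D4:**
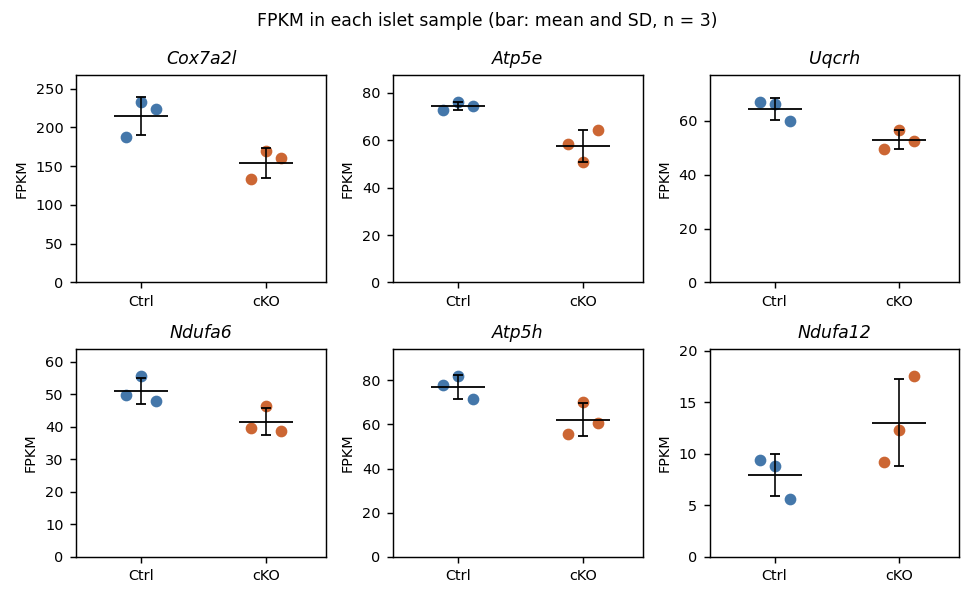
FPKM of 6 members in each sample, with the mean and SD of each genotype as a bar (n = 3). In *Cox7a2l*, *Atp5e*, *Uqcrh*, *Ndufa6* and *Atp5h* the cKO samples lie below the Ctrl samples, whereas in *Ndufa12* the genotypes overlap.

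The largest rise was that of *Ndufa12*, an accessory subunit of complex I, at 9.42, 8.83 and 5.63 in Ctrl and 9.21, 12.3 and 17.6 in cKO. cKO replicate 1 lay below Ctrl replicate 1, so the genotypes overlapped. The log2 fold change of 0.63 (standard error 0.263) had an unadjusted p of 0.0502 and an adjusted p of 0.675 from limma, and rested on 147 to 498 reads per sample. Without cKO replicate 1 it was 0.84, and over the 6 fits that left out a replicate it ran from 0.41 to 0.84. Scaled to the reads on genes it was 0.71 (limma unadjusted p = 0.0314), and with limma's voom 0.79 (unadjusted p = 0.0221). *Ndufs6b*, with few reads, was the only other member with an absolute log2 fold change of at least 0.5.

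Members without overlap but at an unadjusted p above 0.05 moved little. Those lower in every cKO sample were *Ndufa13*, with 51.7 ± 1.42 (SD, n = 3) in Ctrl and 45.0 ± 3.97 in cKO, *Ndufb5*, with 9.18 ± 0.252 and 7.75 ± 1.03, and *Ndufs1*, with 7.87 ± 0.130 and 7.11 ± 0.125. *Ndufs1* is the large iron-sulfur subunit of the core, and overlaps *Eef1b2* and *Ino80dos* on the opposite strand, as *Ndufb5* does *Mrpl47*, *Ndufa13* *Tssk6* and *Uqcrh* *Gm12854*. *Ndufa13* also overlaps *Yjefn3* on the same strand. Those higher in every cKO sample were the accessory subunits *Ndufb9*, with 31.0 ± 1.63 and 34.1 ± 2.16, and *Ndufa10*, with 12.2 ± 0.205 and 13.3 ± 0.728, as well as *Atp5g3*. In each of these 6 the means of the genotypes stayed within 0.23 of each other on the log2 scale. The 7 core subunits of complex I tested included 0 at an unadjusted p under 0.05, against 7.4% of all genes, and had a median log2 fold change of -0.11.

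By complex, the median log2 fold change was -0.06 for complex I, -0.09 for its assembly factors, 0.02 for complex II, -0.05 for complex III, -0.10 for complex IV and -0.10 for complex V. Over all 94 members it was -0.08, against -0.01 over all genes tested. The fold change was below 0 in 65 members (69.1%) and in 53.5% of all genes. This direction depended on the scaling. Scaled to the reads outside *Ins1* and *Ins2*, the median of the members was -0.16 and that of all genes -0.08. Scaled to the reads on genes, it was 0.01 for the members and 0.04 for all genes. The members' median lay below that of all genes in each of these, by 0.03 to 0.09. It lay below by 0.01 to 0.12 over the fits that left out a replicate. Without Ctrl replicate 3, the medians of complexes I to V were -0.12, -0.09, -0.14, -0.17 and -0.13. Over the 6 such fits, that of complex I ran up to -0.01 (without cKO replicate 1) and that of complex III to -0.01 (without Ctrl replicate 1). Complex II reached 0.09 (without Ctrl replicate 2), while complexes IV and V reached -0.07.

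Summed over a complex, complex IV differed most, with 1498, 1649 and 1471 FPKM in Ctrl against 1271, 1474 and 1386 in cKO. The mean was 10.5% lower in cKO, and cKO replicate 2 lay above Ctrl replicate 3, so the genotypes overlapped. The sum of complex I was 1535, 1663 and 1434 in Ctrl and 1342, 1576 and 1489 in cKO, 4.84% lower. The sums of complexes II, III and V were 5.25%, 4.89% and 7.35% lower in cKO, all with overlap. These sums rested on single samples. With 1 replicate left out, complex I was 0.733% (without cKO replicate 1) to 8.29% (without cKO replicate 2) lower. Complex II was 1.17% and complex III 0.471% lower without Ctrl replicate 2, and 9.77% and 10.8% lower without Ctrl replicate 3. Complex IV was 7.08% to 13.7% lower and complex V 4.83% to 9.94%, each with the smaller value without cKO replicate 1. Scaled to the reads on genes, complex IV was 4.78% lower and complex V 1.52% lower, whereas complexes I, II and III were 1.25%, 0.745% and 1.14% higher in cKO.

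The members also shifted from sample to sample within a genotype. The median difference of the 94 members from their own means over the 6 samples was, on the log2 scale, 0.06, 0.13 and -0.07 for the Ctrl samples and -0.12, 0.04 and -0.05 for the cKO samples. They spanned 0.26, while the medians of all genes tested are held near 0 in each sample by the scaling of the deposited values. With the reads outside *Ins1* and *Ins2* as the scale, the members' medians were 0.07, 0.18 and 0.01 for the Ctrl samples and -0.19, 0.01 and -0.07 for the cKO samples. The genotypes overlapped in the deposited scaling, and in this other one the lowest Ctrl sample (0.00748) lay just above the highest cKO sample (0.00575). In Ctrl replicate 2, 76 of 94 members were above their own mean (80.9%, against 47.6% of all genes), and in Ctrl replicate 3, 22 were (23.4%, against 47.5%). In cKO replicate 1, 23 members were above their mean, and in cKO replicate 2, 62 were. The highest value of a member was in Ctrl replicate 2 for 50 of 94, and the lowest in cKO replicate 1 for 36 and in Ctrl replicate 3 for 35.

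**Figure D5:**
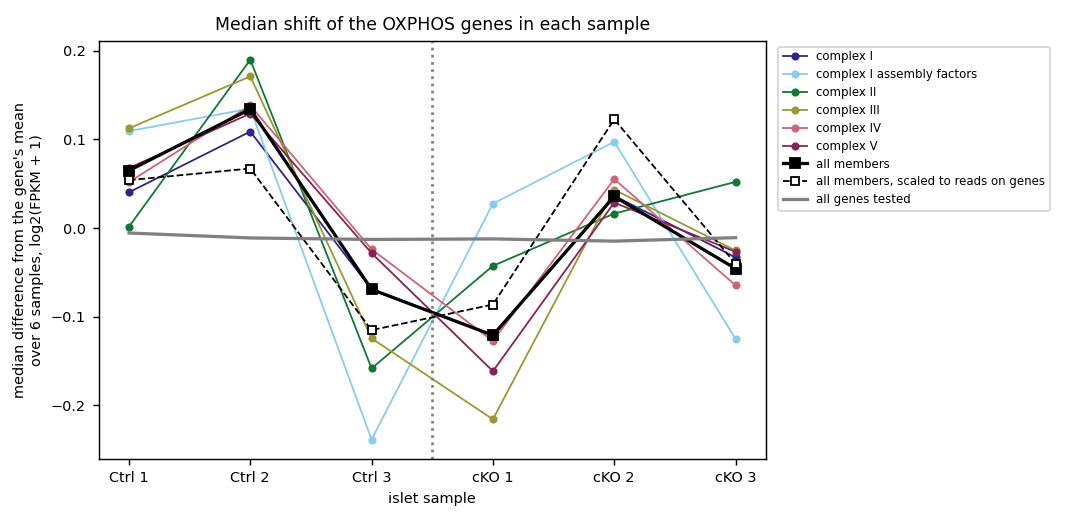
Median difference of the members of each complex from their own means over 6 samples, on the log2(FPKM + 1) scale, in each sample. Lines only link the points of 1 group of genes. Complexes I, III, IV and V follow one course, all genes tested (grey) are held near 0 by the scaling, and Ctrl replicates 2 and 3 lie apart.

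All 6 gene groups had their highest median in Ctrl replicate 2. The lowest was in cKO replicate 1 for complexes I, III, IV and V and in Ctrl replicate 3 for complex II and the assembly factors. Scaled to the reads on genes, the span over samples was 0.24 and the highest sample became cKO replicate 2, so which sample stood highest depended on the scaling. The span was 0.37 in the scaling to the reads outside *Ins1* and *Ins2*. Of the other cell types, acinar markers summed to 11871, 19160 and 6938 in Ctrl and 31621, 8628 and 26079 in cKO. Ctrl replicate 3 and cKO replicate 2 held the lowest acinar sums, and in the deposited scaling the members were low in the first and high in the second. In that scaling, cKO replicate 1 held both the highest acinar sum and the lowest median of the members. The β-cell markers, 9 genes with insulin among them, summed to 235639, 268321 and 275948 in Ctrl and 195134, 204893 and 217318 in cKO, all cKO sums below all Ctrl sums. *Ins2* made up most of these sums, with a mean of 168013 in Ctrl and 122054 in cKO. Of the 9 genes, 2 (*Ins2* and *Iapp*) were lower in every cKO sample and 1 (*G6pc2*) was higher, against 6.03% and 7.11% of all genes. The rest overlapped. Among these, *Ucn3* was at 255 ± 61.7 (SD, n = 3) in Ctrl and 167 ± 18.7 in cKO. It alone of the 9 had a limma unadjusted p under 0.05 (0.0265, adjusted p = 0.597), where 3.07% of all genes were lower. The 7 stromal markers summed to 8.04 to 16.1 in Ctrl and to 13.5 to 40.3 in cKO, and the 6 endothelial markers to 104 to 118 and 126 to 158. The part of β cells and of other cells in the members' values was not tested.

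Other genes of the pathway were compared in the same fit. The 13 subunits encoded in the mitochondrial genome all had a fold change below 0 in cKO, as had 53.5% of all genes. Their median log2 fold change was -0.59. In 7 of them all cKO samples were below all Ctrl samples, against 6.03% of all genes. At a limma unadjusted p under 0.05, 2 (*mt-Co3* and *mt-Nd4l*) were lower, against 3.07% of all genes. The summed FPKM of the 13 was 29194, 18756 and 18841 in Ctrl and 12782, 13880 and 17776 in cKO. In the deposited scaling the genotypes did not overlap, with or without Ctrl replicate 1. Scaled to the reads on genes, the sums of Ctrl replicate 2 and cKO replicate 3 come out level, so this separation depended on the scaling. The smallest limma adjusted p of these 13 was 0.590, and their difference from the nuclear members was not tested. The nuclear members summed to 4782, 5134 and 4463 in Ctrl and 4123, 4715 and 4511 in cKO, with overlap.

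The electron carrier cytochrome c (*Cycs*) and cytochrome c1 (*Cyc1*) had log2 fold changes of 0.04 and 0.02. Of 36 tested assembly factors with other names, 0 were at an unadjusted p under 0.05, where 7.4% of all genes were, and the median was -0.06. Of 14 enzymes of the citric acid cycle, 2 were higher at an unadjusted p under 0.05 and 0 were lower, against 4.33% and 3.07% of all genes. The 2 were *Ogdh* (28.3 ± 0.92 (SD, n = 3) in Ctrl and 34.5 ± 4.31 in cKO, limma adjusted p = 0.64) and *Suclg2* (7.61 ± 0.32 and 9.33 ± 0.54, 0.55). Of 12 regulators of respiratory gene transcription, 0 were at an unadjusted p under 0.05, against the same 7.4% of all genes. *Tfam*, which maintains and transcribes mitochondrial DNA, had 7.13 ± 0.84 in Ctrl and 7.10 ± 0.32 in cKO. *Ppargc1a*, a coactivator of respiratory genes, was at or below 0.24 in every sample.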

How the data were processed

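RNA was extracted with TRIzol from 3 Ctrl and 3 cKO islet samples, and libraries were made with a SMARTER mRNA kit. FPKM was deposited by the authors for each gene in each sample, with GRCm38 (mm10) coordinates. Their own comparison used a count model. The aligner, the counting tool and the strand setting are not given in the sources used here. Reads were read back as FPKM times gene length (100% of values within 0.05 of a whole read) and used for depth and alternatives.

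log2(FPKM + 1) was compared with limma 3.58.1 in R 4.3.3 (unpaired linear model, empirical Bayes with trend, two-sided, Benjamini-Hochberg) over all genes whose mean FPKM reached 0.1. This replaces a count test because FPKM were deposited. No set was tested. Sums and medians are descriptions. Members named were those at an unadjusted p under 0.05, all of complex II, the 2 highest and the lowest of each complex, the largest rise and fall, the alternative copies and the untested. Others were named after their values were seen. The members and lists were chosen with earlier results of these data known. Alternatives were pseudocounts, filters, scalings, voom, a replicate block and leaving out each replicate. Scaling to reads on genes and the principal transcript length (GENCODE M21) were chosen after seeing the data. Same-numbered samples are different animals. Nothing in the sources used here ties a sample to a separate mouse, so p-values measure the spread between these samples. A result on 1 member is not reported here. The code was tested on simulated data.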

Additional observations from a re-analysis of the deposited data

How the results depend on the processing

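With 3 samples a genotype and 0 members at an adjusted p under 0.05 in any alternative, single members could be ranked but not called. Over all genes, 2 passed the adjusted threshold with voom and 1 without Ctrl replicate 1. By the unadjusted p, 1499 genes were higher with voom and 1404 scaled to reads on genes. Lower were 1260 scaled to reads outside *Ins1* and *Ins2*, 328 with voom, 378 scaled to reads on genes and 402 to 1173 with a replicate left out, the lowest without cKO replicate 3 and the highest without Ctrl replicate 1. Of the members, 15 were lower scaled to reads outside *Ins1* and *Ins2*, 2 with voom, 2 scaled to reads on genes and 2 to 9 with a replicate left out. Higher was 1 with a pseudocount of 0.1, with a mean FPKM of at least 1 and with voom, 2 scaled to reads on genes and 0 to 2 with a replicate left out. The cause was not tested.

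With a replicate block, 1 member was higher and 6 were lower. Deviations of same-numbered samples did not pair, with r of -0.17, -0.02 and -0.07 over all genes.

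Scaled to reads outside *Ins1* and *Ins2*, the median log2 fold change was -0.14 for complex I, -0.19 for IV and -0.19 for V, and the sum of complex V was 12.9% lower (-12.9%), against 1.52% lower (-1.52%) scaled to reads on genes. Small differences reversed there for *Uqcrb* (-0.034), *Sdha* (-0.061), *Sdhb* (-0.076) and *Sdhc* (-0.019). Some also reversed with 1 replicate left out, with a log2 fold change of -0.13 to 0.19 for *Uqcrb*, -0.11 to 0.11 for *Sdhb*, -0.069 to 0.21 for *Sdhc* and -0.041 to 0.23 for *Ndufaf3*. Median-of-ratios scaling changed nothing, because the deposited values already had it.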
